A study of Homo sapiens with 3 samples.

Results

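The 8 genes described here form the LIN28 and let-7 axis of developmental timing, and were taken as every probe set annotated to 1 of them alone: LIN28A, LIN28B, HMGA1, HMGA2, TRIM71, IGF2BP1, IGF2BP2 and IGF2BP3. They held 23 of the 41091 probe sets that carry a single gene symbol and 8 of 19775 genes. The RNA, hybridised to 3 arrays, came from H9, an established line of human embryonic stem cells. The neuroepithelial array held cells at day 17 of differentiation that had received no morphogen. The RA array held astrocytes at day 210 from cells given retinoic acid between day 10 and day 21, and the FGF8 array held astrocytes at day 210 from cells given FGF8 over the same days. All cultures began as embryoid bodies, taken off mouse embryonic fibroblasts at day 0. Each group was 1 array from 1 line, so there is no replicate spread, no test and no p-value, and genes were called only by size, at least 2-fold apart. The astrocyte arrays differ from the neuroepithelial array in both age and morphogen, which cannot be told apart in that comparison.

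LIN28A and LIN28B are RNA-binding proteins that block the processing of let-7 precursors, and let-7 in turn represses LIN28B and a set of growth-promoting transcripts. Both arms therefore oppose each other as embryonic tissue matures. HMGA2, an architectural chromatin protein, TRIM71, a ubiquitin ligase that also binds RNA, and the IGF2BP proteins, which bind and protect messenger RNAs, are among the classical let-7 targets. In neural tissue several of these genes, though not IGF2BP2, are known as markers of early progenitors that decline as development proceeds.

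The let-7 sequences are shown because their shared seed is what joins these targets. Bases 2 to 8, the seed, are in capitals, and the sequences, from RefSeq on GRCh38.p14, run 5′ to 3′.
let-7a: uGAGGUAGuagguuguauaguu
let-7b: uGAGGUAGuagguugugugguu
let-7c: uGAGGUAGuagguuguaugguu
let-7f: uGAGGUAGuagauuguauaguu
let-7g: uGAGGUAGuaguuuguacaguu
let-7i: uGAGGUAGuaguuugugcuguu
miR-98: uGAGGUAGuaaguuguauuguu
miR-125b: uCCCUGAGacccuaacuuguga
All 9 mature let-7 family members in the table, made from 12 genes, carried the seed GAGGUAG, and outside it they differed from let-7a by at most 4 bases (let-7i). The miR-125 pair carried another seed, CCCUGAG, and is shown because miR-125b, a relative of the worm timing RNA lin-4, shares host transcripts with let-7 and also targets LIN28A. No mature miRNA was measured here.

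Signals below are normalized intensities, made comparable by giving the 3 arrays the same distribution (quantile normalization). The floor was a signal of 26.4, the median once control probe sets were left out. Lower values were raised to it. A fold with the floor on 1 side is therefore only a minimum, given as at least, and no difference is given where both sides are at the floor. Values under the floor have no order among themselves. In bulk RNA, fewer cells of a type and less RNA per cell cannot be told apart.

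Markers of the labelled cell types were checked. Of 9 astrocyte markers 8 were at least 2-fold higher in each astrocyte array than in neuroepithelial cells (ALDH1L1, a folate enzyme of astrocytes, lay within 2-fold). All 8 neuroepithelial markers lay above the floor at day 17, PAX6 at 1840. Of these, 6 were at least 2-fold lower in RA astrocytes and 5 in FGF8 astrocytes. NES was 2.05-fold higher in RA astrocytes, and SOX2 lay within 2-fold in both. All 8 neuron markers were above the floor at day 17 too, STMN2 at 2237 and DCX at 2058, but RBFOX3 only at 28.1. The day 17 array also held 7 of 7 mesenchymal markers above the floor, with a summed signal of 9051 against 104 for RA and 486 for FGF8, and alpha-fetoprotein, AFP, at 680. Among 6 microglia markers at most 1 was above the floor on any array. The signal at the 3′ end divided by that at the 5′ end is higher where RNA is degraded or incompletely copied. For ACTB this ratio was 1.33 in the neuroepithelial array and 6.67 and 6.63 in the RA and FGF8 arrays. For GAPDH the gap was smaller, with 0.98, 1.79 and 1.65 in the same order. Spike-in transcripts were brightest in the RA array, by 2.62-fold over the neuroepithelial and 2.40-fold over the FGF8 array. The part of these features in the differences below was not tested.

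The comparisons with neuroepithelial cells ask how the timing genes stand in an early progenitor and in astrocytes grown for months. In each astrocyte array 7 of the 8 genes were at least 2-fold lower than at day 17, and none was higher. The exception was IGF2BP2. Over all genes compared, 14.6% were at least 2-fold lower for RA and 10.2% for FGF8. The median difference of the 8 genes was -4.66 log2 units for RA and -5.13 for FGF8, with bounds taken at their bound, against 0.07 and 0.05 over all genes. Both comparisons use the same neuroepithelial array. Of the 23 probe sets 17 lay above the floor in the neuroepithelial array. All 17 had a negative difference in both comparisons, 11 of them at least 2-fold lower for RA and 12 for FGF8. Where the astrocyte signal was under the floor, that difference could only be negative. The sign could go either way only for 10 of the 17 with RA and 8 with FGF8, and these were negative too. Probe sets of 1 gene are not independent of each other. The remaining 6 of the 23 probe sets, 5 for HMGA2 and 1 for IGF2BP3, lay under the floor on every array and say nothing about their genes.

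**Figure D1:**
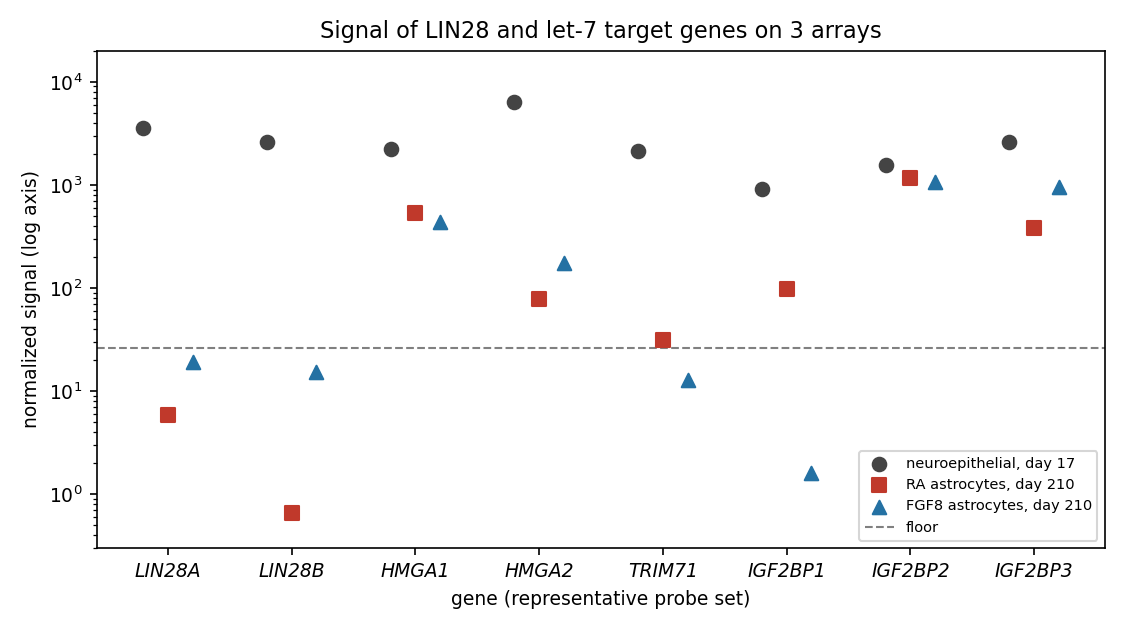
Normalized signal (log axis) of the representative probe set of each gene on the 3 arrays, 1 point per array, with the floor of 26.4 as a dashed line. All 8 genes sit above the floor in the neuroepithelial array; LIN28A and LIN28B sit under it on both astrocyte arrays, and IGF2BP2 stays above 1000 on all 3.

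The LIN28 paralogs were the genes closest to an on-off pattern. LIN28A, the paralog shared with pluripotent stem cells, had a signal of 3581 at day 17, 5.78 in RA astrocytes and 19.01 in FGF8 astrocytes. It was high at day 17 and under the floor in both astrocyte cultures. That put it at least 136-fold lower in each. With bounds taken at their bound, 4 of 13339 genes, LIN28A included, had a difference as low or lower in the RA comparison. In the FGF8 comparison 2 of 13004 did. For LIN28A this rank follows its day 17 signal alone, since the astrocyte side is the floor. Ranks below were taken the same way.

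LIN28B, which also blocks let-7 processing and is itself a let-7 target, gave a signal of 2589 at day 17, 0.648 in RA astrocytes and 15.4 in FGF8 astrocytes. Its pattern was the same, high at day 17 and under the floor afterwards, and it was at least 98.2-fold lower in each astrocyte array. Each paralog had a single probe set, so neither pattern has a second probe set to set beside it. The size of these bounds follows the floor: with the floor at the 70th percentile LIN28A was at least 5.23 log2 units lower and LIN28B at least 4.76. Since both genes lay under the floor in both astrocyte arrays, RA and FGF8 astrocytes could not be compared for either.

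TRIM71, the vertebrate lin-41, is a let-7 target that keeps progenitors dividing and represses messenger RNAs. Its signal was 2152 at day 17, 31.5 in RA astrocytes and 12.8 in FGF8 astrocytes. The astrocyte values lay just above the floor for RA and under it for FGF8. TRIM71 was 68.3-fold lower in RA astrocytes and at least 81.6-fold lower in FGF8 astrocytes. Between the astrocyte arrays it was at least 1.19-fold higher with RA, a minimum that does not settle whether the difference reached 2-fold. With the floor at the 30th percentile the difference was 1.29 log2 units, so the size rests on signals near the floor.

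HMGA2 and HMGA1 bind AT-rich DNA and open chromatin for transcription, and HMGA2 supports self-renewal of fetal neural stem cells. HMGA2 had a signal of 6300 at day 17, 78.8 in RA astrocytes and 176 in FGF8 astrocytes on its representative probe set. The astrocyte signals were low but above the floor, so these folds are measured and not bounds. HMGA2 was 80.0-fold lower in RA astrocytes and 35.8-fold lower in FGF8 astrocytes. In the RA comparison 9 genes had a difference as low or lower, itself included, and in the FGF8 comparison 30 did.

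The HMGA2 values rest on 1 of its 9 probe sets. The next 3 had neuroepithelial signals of 47.9, 46.4 and 40.9, near the floor. They were lower in both astrocyte arrays. The 1 measured difference was 1.53-fold, and the others were minimums of 1.55-fold to 1.82-fold, which do not settle whether they reached 2-fold. The other 5 lay under the floor on all 3 arrays. The bright one is an _s_at probe set, annotated to HMGA2 alone. Without _s_at and _x_at probe sets, treated here as less specific, the HMGA2 difference was -0.61 for RA. For FGF8 it was -0.86, a minimum in size since the FGF8 signal was under the floor.

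HMGA1 had a smaller difference and stayed well above the floor. Its signal was 2242 at day 17, 529 in RA astrocytes and 439 in FGF8 astrocytes. Both astrocyte cultures lay below the day 17 culture and close to each other. HMGA1 was 4.24-fold lower in RA astrocytes and 5.10-fold lower in FGF8 astrocytes. A further probe set gave 199.96, 45.9 and 27.7, or 4.36-fold and 7.23-fold lower. With array medians set equal the differences were -1.59 for RA and -1.78 for FGF8, still past 2-fold but no longer past 4-fold. In the RA comparison 5.05% of genes lay as low as HMGA1 or lower, against 0.0675% for HMGA2.

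Other high mobility group genes were set beside them. Of 8 HMGB and HMGN genes, which belong to separate chromatin protein families, 4 were at least 2-fold lower in RA astrocytes and 1 in FGF8 astrocytes, and none was higher. The shares lower over all genes were 14.6% for RA and 10.2% for FGF8. HMGB2, a gene of dividing cells, was 8.66-fold lower in RA astrocytes and differed by -0.40 in FGF8 astrocytes. HMGN5, a nucleosome-binding protein, was 2.97-fold and 2.43-fold lower. HMGB1 was within 2-fold in both, with differences of 0.27 and 0.16. The median of the 8 was -0.9998 for RA and -0.36 for FGF8, and the latter turned to 0.21 with array medians set equal.

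**Figure D2:**
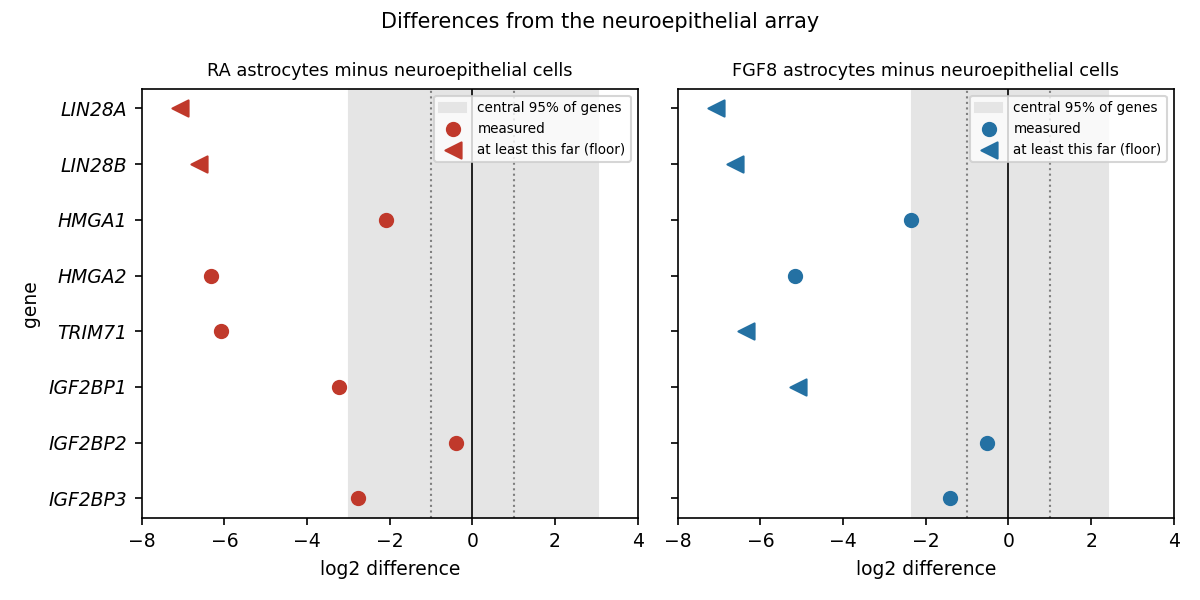
Log2 difference of each gene from the neuroepithelial array for RA astrocytes (left) and FGF8 astrocytes (right); triangles are lower bounds, dotted lines mark 2-fold and grey bands hold the central 95% of all genes compared. LIN28A, LIN28B, HMGA2 and TRIM71 lie beyond 5 log2 units below 0 in both panels, while IGF2BP2 lies at -0.40 and -0.52.

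The 3 IGF2BP paralogs, oncofetal proteins that hold target messenger RNAs such as IGF2 and MYC in protected particles, did not share 1 pattern. IGF2BP1 had a signal of 901 at day 17, 96.5 in RA astrocytes and 1.61 in FGF8 astrocytes. It was highest at day 17, low but above the floor in RA astrocytes and under the floor in FGF8 astrocytes. IGF2BP1 was 9.35-fold lower in RA astrocytes and at least 34.2-fold lower in FGF8 astrocytes. Its other probe sets had neuroepithelial signals of 75.2 and 44.3 and lay under the floor on both astrocyte arrays, so they too were lower at 210 days but give no order between the astrocyte cultures.

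IGF2BP3 stayed above the floor in both astrocyte cultures. Its representative probe set gave 2579 at day 17, 381 in RA astrocytes and 960 in FGF8 astrocytes. RA astrocytes were lowest and FGF8 astrocytes lay between. IGF2BP3 was 6.77-fold lower in RA astrocytes and 2.69-fold lower in FGF8 astrocytes. A further probe set gave 1753, 163 and 322, or 10.8-fold and 5.45-fold lower. The third above the floor gave 325, 20.6 and 35.0, at least 12.3-fold and 9.29-fold lower. The order of the arrays was the same on all 3, but the size for FGF8 ranged from -1.42 to -3.22 log2 units between them. With array medians set equal the representative probe set gave -0.84 for FGF8, within 2-fold, and FGF8 astrocytes then had 6 genes called and not 7.

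IGF2BP2, which is the paralog kept in many adult tissues, differed least. Its signal was 1542 at day 17, 1166 in RA astrocytes and 1074 in FGF8 astrocytes. The 3 values lay within 1.44-fold of each other. The differences were -0.40 for RA and -0.52 for FGF8, and both changed sign, to 0.12 and 0.05, with array medians set equal. Of all genes compared 30.2% lay as low or lower in the RA comparison and 21.8% in the FGF8 comparison. A dimmer probe set of IGF2BP2 gave 109.7, 74.3 and 29.8, which is 1.48-fold lower for RA and 3.69-fold lower for FGF8. The FGF8 value of that probe set lay just above the floor.

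**Figure D3:**
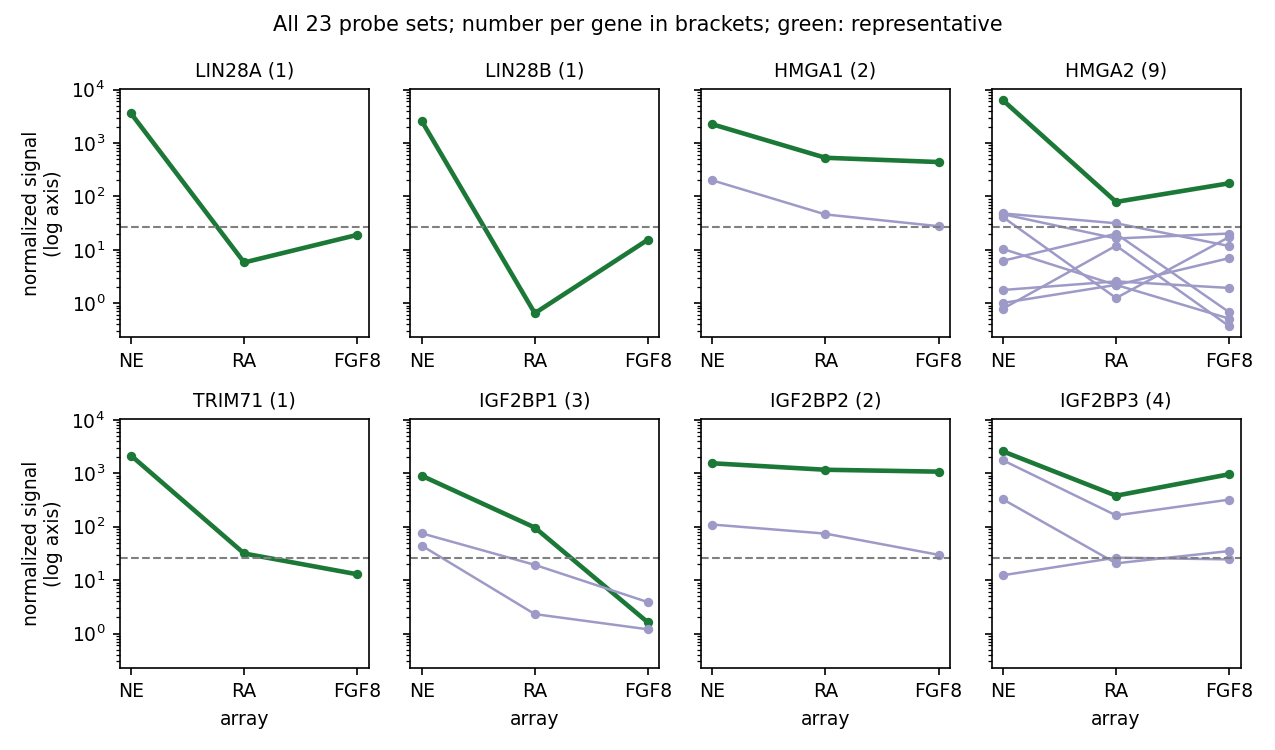
Normalized signal (log axis) of all 23 probe sets across the neuroepithelial (NE), RA and FGF8 arrays, 1 panel per gene, with the representative probe set in green and the floor as a dashed line. The 9 HMGA2 probe sets include 1 bright one at 6300 in the neuroepithelial array; the 3 IGF2BP3 probe sets above the floor all have RA lowest.

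Proteins known to sit with IGF2BP1 on messenger RNAs, with the RNA-binding protein MSI2, showed smaller differences. Of 6 analysed, 3 were at least 2-fold lower in RA astrocytes and 1 in FGF8 astrocytes, and none was higher. Among all genes compared 14.6% were lower for RA and 10.2% for FGF8. HNRNPU, a nuclear RNA-binding scaffold, was 3.70-fold and 2.16-fold lower, and the stabilising protein ELAVL1 was 2.26-fold lower in RA astrocytes. YBX1, an abundant RNA-packing protein, differed by -0.34 and -0.15. The list's median was -0.97 for RA and -0.41 for FGF8, the latter 0.13 with array medians set equal. IGF2 and H19 were not analysed here.

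Upstream sequence is shown for IGF2BP genes that differed in pattern and for LIN28B. RefSeq starts on GRCh38.p14 were in the table for 5 of the 8 genes, at 8 starts. The 250 bases before 3 of those starts are given 5′ to 3′, with matches to GGGCGG (GC box) or CACGTG (E-box) in capitals, each searched on both strands with overlapping matches counted apart.
LIN28B, chr6:104940715-104940964, plus strand: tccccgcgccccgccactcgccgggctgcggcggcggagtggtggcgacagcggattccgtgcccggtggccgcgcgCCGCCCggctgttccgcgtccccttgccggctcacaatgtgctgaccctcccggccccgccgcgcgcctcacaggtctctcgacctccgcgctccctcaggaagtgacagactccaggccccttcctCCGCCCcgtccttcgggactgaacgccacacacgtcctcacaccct
IGF2BP3, chr7:23470492-23470741, minus strand: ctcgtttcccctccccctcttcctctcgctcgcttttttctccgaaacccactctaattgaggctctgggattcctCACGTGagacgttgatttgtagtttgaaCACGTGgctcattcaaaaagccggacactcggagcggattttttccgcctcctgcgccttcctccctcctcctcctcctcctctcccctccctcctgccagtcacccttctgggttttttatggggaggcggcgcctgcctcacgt
IGF2BP2, chr3:185825043-185825292, minus strand: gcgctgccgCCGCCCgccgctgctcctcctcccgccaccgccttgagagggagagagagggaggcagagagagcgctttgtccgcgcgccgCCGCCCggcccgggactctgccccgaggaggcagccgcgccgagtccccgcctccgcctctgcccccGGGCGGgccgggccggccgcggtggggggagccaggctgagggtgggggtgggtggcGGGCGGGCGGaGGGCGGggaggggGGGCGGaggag
In the windows shown IGF2BP3 held 2 E-box matches and no GC box, IGF2BP2 held 7 GC box matches and no E-box, and LIN28B held 2 GC box matches. Among the 5 other windows HMGA1 held 5 GC box matches at 1 start and 1 CCAAT at its other start, and TRIM71 held none of the 4 motifs. A further IGF2BP2 start held no GC box but 1 CCAAT and 1 TATAAA, and a further LIN28B start held 1 CCAAT and 1 E-box. Motif content thus varied between starts of 1 gene. An E-box match was present in 6.34% of 35116 upstream windows and a GC box match in 42.6%. CCAAT was found in 32.01% and TATAAA in 10.7% of windows. The share of G and C was 81.6% for IGF2BP2, 73.6% for LIN28B and 56.8% for IGF2BP3 in the windows shown, 32.8% and 38.4% at the further starts of IGF2BP2 and LIN28B, against a median of 58.0% over all windows. A match describes the letters and is not evidence of binding.

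The comparison of RA with FGF8 astrocytes asks whether the early morphogen left a difference in these genes at the same age. HMGA2 and IGF2BP3 were at least 2-fold lower in the RA array, IGF2BP1 was higher by 2-fold or more, and IGF2BP2 and HMGA1 lay within 2-fold, out of 6 genes that could be compared. For TRIM71, the other gene compared, the minimum of 1.19-fold left the call undecided. Over all genes 7.86% were at least 2-fold lower and 9.68% at least 2-fold higher. The difference was 2.23-fold for HMGA2 (78.8 against 176), and -0.88 log2 units with the floor at the 70th percentile. A dim HMGA2 probe set went the other way, at least 1.19-fold higher with RA (31.4 against a value under the floor). Without _s_at probe sets this dim one stood for HMGA2, at a minimum of 0.25. For IGF2BP3 the difference was 2.52-fold (381 against 960). Its further probe sets gave 1.97-fold and at least 1.33-fold in the same direction, the latter a minimum. IGF2BP1 was higher with RA by at least 3.66-fold (96.5 against 1.61), and at that bound 2.83% of genes had a difference as high or higher. It rests on 1 probe set, and with the floor at the 70th percentile the bound was 0.02 log2 units. HMGA1 differed by 0.27 and IGF2BP2 by 0.12, while the dimmer IGF2BP2 probe set was 2.496-fold higher in the RA array. IGF2BP1 and IGF2BP3 thus stood in opposite order in the astrocyte arrays. Markers of other states also differed here: all 12 proliferation markers were at least 2-fold lower with RA (median -2.60). Of 7 neuron markers compared, 2 were at least 2-fold higher with RA and 3 lower. STMN2 was at least 5.80-fold and SYT1 5.08-fold higher. DCX was 11.6-fold, NEFL 4.42-fold and SNAP25 at least 4.50-fold lower. Of 4 oligodendrocyte lineage markers compared 1 was lower, PDGFRA, by 7.62-fold. Summed signals for RA and FGF8 were 14596 and 20770 for the neuron list and 1073 and 6492 for the oligodendrocyte list, in which MOG and SOX10 were under the floor on both arrays. Their part in the differences was not tested.

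Proliferation markers were lower beside the timing genes. All 12 were at least 2-fold lower in RA astrocytes than in neuroepithelial cells, with a median difference of -3.43. In FGF8 astrocytes 6 of the 12 were, with a median of -0.98, or -0.40 with array medians set equal. Over all genes 14.6% were at least 2-fold lower for RA and 10.2% for FGF8. The summed signal of the 12 markers was 21875 in the neuroepithelial, 2662 in the RA and 13358 in the FGF8 array. MKI67, a marker of cycling cells, had signals of 374, 42.9 and 313 in the same order. The part of cell division in the differences was not tested.

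Transcripts that span let-7 genes were, where they differed, higher in the astrocyte arrays. MIR99AHG spans let-7c (chr21:16539838-16539859) and a miR-125b copy. It had a signal of 87.5 at day 17, 470 in RA astrocytes and 280 in FGF8 astrocytes, and was 5.38-fold and 3.21-fold higher in the astrocytes. Its other 2 probe sets were higher too, by 1.65 and 1.33 log2 units for RA and by 1.26 and 0.72 for FGF8. MIR100HG spans the let-7a-2 gene, which makes let-7a (chr11:122146568-122146589), and another miR-125b copy. Its signal was 483 at day 17, 1991 in RA astrocytes and 1915 in FGF8 astrocytes, or 4.12-fold and 3.96-fold higher. The other MIR100HG probe set lay under the floor on every array. Both astrocyte arrays lay above the neuroepithelial one for these 2 transcripts.

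MIRLET7BHG, which spans let-7a-3 and let-7b (chr22:46113691-46113712), had a signal of 1.95 at day 17, 66.6 in RA astrocytes and 20.8 in FGF8 astrocytes. It was above the floor only in RA astrocytes, at least 2.53-fold higher than in either other array. The protein-coding hosts HUWE1, spanning let-7f-2 and miR-98, and WDR82, spanning let-7g, lay within 2-fold in both comparisons, HUWE1 at -0.15 and -0.43 and WDR82 at 0.15 and 0.12. So 3 of these 5 hosts were at least 2-fold higher for RA and 2 of 4 compared for FGF8, where 18.1% and 12.8% of all genes were. Other genes that span let-7 genes, MIRLET7A1HG (let-7a-1, let-7f-1 and let-7d), SPACA6 (let-7e) and MIRLET7IHG (let-7i), were not analysed here. A host transcript is not a measure of the mature miRNA, whose processing LIN28 controls.

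**Figure D4:**
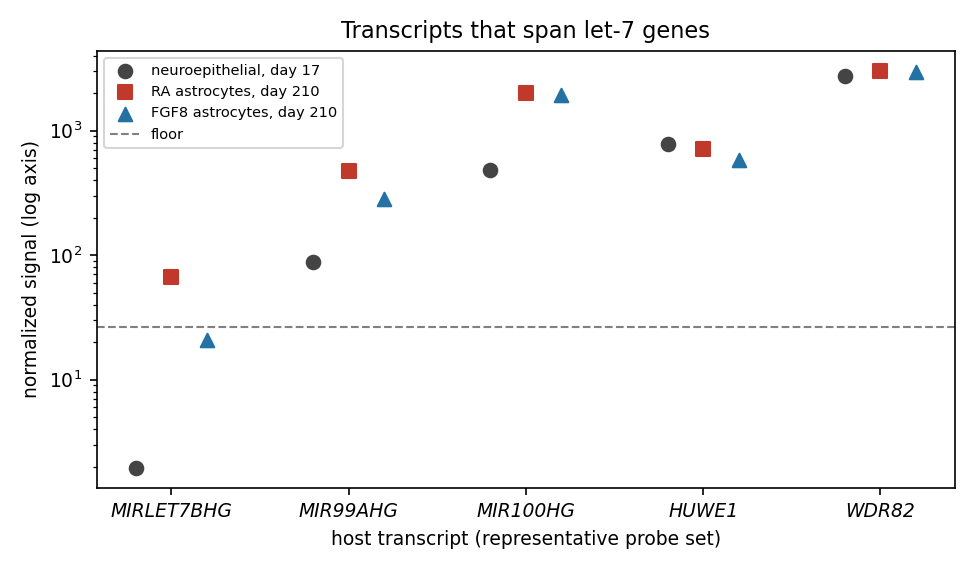
Normalized signal (log axis) of 5 transcripts whose genes span let-7 genes, 1 point per array, with the floor dashed. MIR99AHG and MIR100HG lie higher on both astrocyte arrays (470 and 280 against 87.5; 1991 and 1915 against 483), while HUWE1 and WDR82 differ by less than 2-fold.

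Enzymes and other proteins that make, tail, bind or use miRNAs mostly lay within 2-fold. Of 17 analysed, 4 were at least 2-fold lower and 0 higher in RA astrocytes, and 0 were lower and 1 higher in FGF8 astrocytes. Over all genes compared 14.6% were lower and 18.1% higher for RA, and 10.2% and 12.8% for FGF8. The median of the 17 was -0.51 for RA and -0.18 for FGF8, the latter 0.36 with array medians set equal. DICER1, which cuts the let-7 hairpin and is itself a let-7 target, was 2.96-fold lower in RA astrocytes and 1.94-fold lower in FGF8 astrocytes, where another probe set gave -1.52. HNRNPA1, AGO4 and AGO2 were 3.19-fold, 2.53-fold and 2.36-fold lower in RA astrocytes, and another AGO4 probe set gave -0.20. AGO3, an Argonaute that carries mature miRNAs, was 2.15-fold higher in FGF8 astrocytes. TUT4 and TUT7, which add uridines to let-7 precursors held by LIN28, lay within 2-fold, TUT4 at -0.85 and -0.84 and TUT7 at 0.50 and 0.82.

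Further let-7 targets did not all lie lower. Among 16 regulators and other targets outside the growth list, 9 were at least 2-fold lower and 1 higher in RA astrocytes, and 10 were lower and 1 higher in FGF8 astrocytes, with medians of -1.46 and -1.19. Of all genes compared 14.6% were lower and 18.1% higher for RA, and 10.2% and 12.8% for FGF8. ARID3B, a DNA-binding partner of stem cell programmes, was at least 11.0-fold lower in both. NR2E1, the neural stem cell receptor TLX, was at least 24.5-fold lower in RA astrocytes and 5.43-fold lower in FGF8 astrocytes. The nuclear receptor NR6A1 was 6.86-fold and 4.43-fold lower and the repressor HIC2 6.76-fold and 4.002-fold lower. The homeodomain protein PBX3 was 3.23-fold higher in RA astrocytes, and STARD13 was 2.28-fold higher in FGF8 astrocytes.

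Targets that drive growth and the cell cycle were split. Of 14 analysed, 6 were at least 2-fold lower and 2 higher in RA astrocytes, and 4 were lower and 3 higher in FGF8 astrocytes. The shares over all genes were 14.6% lower and 18.1% higher for RA, and 10.2% and 12.8% for FGF8. The median of the 14 was -0.33 for RA and 0.08 for FGF8, and the RA value turned to 0.12 with array medians set equal. Cyclin D1, CCND1, was at least 40.5-fold lower in both, the phosphatase CDC25A 14.4-fold and 3.28-fold lower, and MYCN 3.54-fold and 5.15-fold lower. Cyclin D2, CCND2, was 2.13-fold and 2.45-fold higher on its main probe set, but another gave -0.90 for RA. The insulin signalling adaptor IRS2 was 6.59-fold and 3.92-fold higher. MYC had signals of 235, 60.5 and 439 in the neuroepithelial, RA and FGF8 arrays, 7.26-fold lower in RA than in FGF8 astrocytes.

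**Figure D5:**
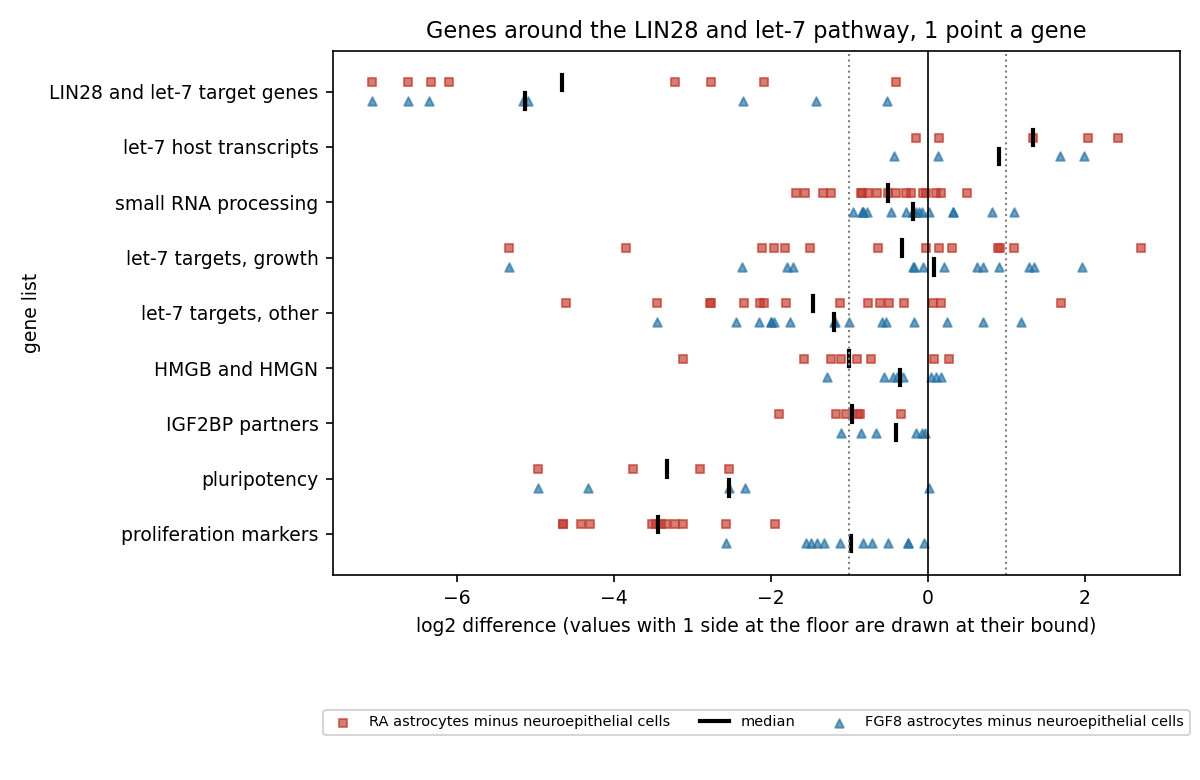
Log2 differences from the neuroepithelial array for genes of the LIN28 and let-7 axis and related lists, 1 point per gene, RA astrocytes as red squares and FGF8 astrocytes as blue triangles, black bars the medians and dotted lines 2-fold. The 8 timing genes have medians of -4.66 and -5.13, the let-7 hosts 1.34 and 0.90, and the proliferation markers -3.43 and -0.98.

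Genes of pluripotency were split at day 17. Of 9 analysed, 5 lay under the floor in the neuroepithelial array already, NANOG at 21.5 among them, where LIN28A and LIN28B were high. The other 4 had day 17 signals of 1353 (DPPA4), 824 (SALL4), 549 (DNMT3B) and 152 (L1TD1). These 4 were at least 2-fold lower in both astrocyte arrays, where 14.6% of all genes compared were for RA and 10.2% for FGF8. SALL4, a zinc finger factor of embryonic cells, was at least 31.3-fold lower in both, DPPA4 was 13.4-fold and 20.002-fold lower, and the DNA methyltransferase DNMT3B 7.49-fold and 5.03-fold lower. POU5F1 and TDGF1 were not analysed here.

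Genes with the most similar pattern were sought for the 4 timing genes above the floor on all 3 arrays, by the distance between their pair of differences from the neuroepithelial array, over 10305 other genes. For HMGA2 the nearest was PRTG (protogenin), an immunoglobulin family receptor of the early neural tube, with differences of -6.19 and -5.36 at a distance of 0.24 log2 units. It was the 1 gene within 0.5, followed by COL4A6 at 1.07 and SOX3 at 1.202. IGF2BP3 had 49 genes within 0.5, the nearest being CDCA4, CTPS1 and HPRT1, and HMGA1 had 36, the nearest being PBX2, NEFM and BCL2L12. IGF2BP2 had 1771, the nearest being PDHA1, MRPL13 and HABP4. The likeness is over 3 arrays, and both differences share the neuroepithelial one.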

How the data were processed

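Total RNA of 3 H9-derived cultures was measured on Affymetrix arrays of 54675 probe sets, 1 array per group; extraction used Trizol followed by a column, and a microarray consortium did the biotin labelling, per the labels' protocols. The deposited values are linear intensities, scaled before deposit to a mean of about 150.0 per array once the top and bottom 2% are trimmed off, as the values show; which signal algorithm made them is not given in the sources used. Probe sets with 1 gene symbol numbered 41091, with several 1801 and with none 11721. Identifiers of 41037 matched RefSeq (GRCh38.p14), used for names and sequences. Intensities were quantile normalized, raised to a floor (26.4, log2 4.72) and brought to log2. The brightest probe set on average stood for its gene, with _x_at used only where no other existed. With 1 array per group no test was run, the number of arrays limits the precision, and genes were called at 2-fold.

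The 8 genes, 8 pathway lists and 8 marker lists were chosen with earlier results of these data known. Named genes were all 8, up to 4 per direction and list with the largest differences past 2-fold, examples within 2-fold, and the 3 nearest genes by pattern. The alternatives tried were deposited values without normalization, array medians set equal, no floor or one at the 30th or 70th percentile, averaging a gene's probe sets, leaving out _x_at and _s_at, and 1.5-fold and 4-fold. The calculation was tested on simulated data. Python 3.11.15, numpy 2.4.6 and pandas 2.3.3 were used.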

Additional observations from a re-analysis of the deposited data

Results flagged for a closer look

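DCX, a microtubule protein of migrating young neurons and 1 of 8 neuron markers measured beside the timing genes, went opposite ways in the 2 astrocyte arrays: -1.82 log2 units from neuroepithelial cells with RA and 1.72 with FGF8. Its signals were 2058, 582 and 6763 in the neuroepithelial, RA and FGF8 arrays. It was picked out because each astrocyte culture passed 2-fold in the opposite direction, and with 1 array per group that difference was not tested. None of the 8 timing genes did so.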

How the results depend on the processing

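Counts of timing genes at least 2-fold lower than in neuroepithelial cells were 7 for RA and 7 for FGF8, and lay between 6 and 7 under every alternative but 1: without _x_at and _s_at probe sets both were 4, since HMGA1 then had no probe set, IGF2BP3 kept only one under the floor and HMGA2 kept dim ones. The genes behind a count could change. With a gene's probe sets averaged, HMGA2 fell under the floor on every array and could not be compared. IGF2BP2 was then called lower for FGF8. The comparison of RA with FGF8 was less stable. Its 1 higher gene became 2 with the floor at the 30th percentile or with no floor, and 0 with the floor at the 70th percentile, with a gene's probe sets averaged and at 4-fold. Its 2 lower genes became 1 with the floor at the 70th percentile and 4 with no floor. They became 0 with a gene's probe sets averaged, without _x_at and _s_at probe sets and at 4-fold. Without _x_at and _s_at probe sets HMGA2 turned to a minimum of 0.25. Over all pathway lists, genes higher in RA than in neuroepithelial cells (8) became 4 at 4-fold and 5 without _x_at and _s_at, and the 32 lower became 17 at 4-fold. For FGF8 the 9 higher became 15 at 1.5-fold and with equal medians, 5 with the mean of probe sets and 1 at 4-fold, and the 22 lower became 12 at 4-fold. Between RA and FGF8 the 3 higher became 9 at 1.5-fold, 5 with deposited values, with the mean of probe sets or with no floor, and 1 at 4-fold or with the higher floor, and the 11 lower became 22 at 1.5-fold, 7 without _x_at and _s_at, 6 with the higher floor and 5 at 4-fold. Of 143 values of single timing genes under alternatives, 131 kept their direction and side of 2-fold. Values that could no longer be compared under an alternative are not among the 143. Equal medians moved the median of all genes from 0.07 to 0.35 for RA and from 0.05 to 0.42 for FGF8, and the share of higher calls from 55.4% to 70.8% and from 55.6% to 75.8%. With 1 array per group no replicate could be left out. No paired analysis was possible because each group has 1 array. Signals near the floor limit TRIM71, the dim HMGA2 probe sets and IGF2BP1 in FGF8 astrocytes.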

Other observations

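Cell cycle inhibitors and JUNB, which is not an inhibitor of this kind, were set beside HMGA2. HMGA2 is known to hold down the CDKN2A locus through JUNB in mouse neural stem cells. Of 7 genes analysed, 2 were at least 2-fold higher and 2 lower in RA astrocytes, out of 7 compared, and likewise 2 and 2 in FGF8 astrocytes, out of 6. Over all genes 18.1% were higher and 14.6% lower for RA, and 12.8% and 10.2% for FGF8. JUNB, a transcription factor of the AP-1 family, had signals of 24.1, 220 and 118 in the neuroepithelial, RA and FGF8 arrays and was at least 8.36-fold and 4.49-fold higher in the astrocytes. CDKN1A, the inhibitor p21, was 3.23-fold and 2.35-fold higher. CDKN1C, an imprinted inhibitor, was 16.99-fold and 34.8-fold lower, and CDKN2B at least 7.36-fold and a measured 3.497-fold lower. The representative probe set of CDKN2A gave 10.7, 41.0 and 25.5, at least 1.55-fold higher in RA astrocytes, while a less specific one gave 47.1, 49.6 and 116, which is 1.299 log2 units higher in FGF8 astrocytes. The probe sets thus disagree on which astrocyte culture was higher.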
